A study of Mus musculus with 4 samples.

Results

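The genes described here are the kallikrein-related serine proteases (Klk), the Kazal-type protease inhibitors (Spink) and 7 of their epidermal partners. The partners are the membrane protease matriptase (St14), its companion prostasin (Prss8), their inhibitors Spint1 and Spint2, the cathepsins Ctsl and Ctsd and the cystatin Cst6. Members were chosen by gene symbol alone, and where a gene has several probe sets the brightest would have been taken. This gave 41 of the 19938 genes with a single symbol, made up of 12 genes from Klk4 to Klk15, 10 Klk1b paralogs, 12 Spink genes, 4 genes of the matriptase system and 3 of the cathepsin system. All 41 genes had 1 probe set each. A probe set that the annotation gives to both Klk1b26 and Egfbp2 was left out because it has more than 1 symbol, and Klk1 itself was not analysed here.

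The samples were laser-captured epidermis of hairless hindpaw skin from mice of 2 transgenic lines. In one line the K14 promoter, which is active in basal keratinocytes, drives overexpression of BMP4, and in the other it drives overexpression of noggin, a secreted antagonist of BMPs. Each array held RNA pooled from 3 animals, with 8 to 10 epidermal strips per animal, so that 6 animals of each line gave 2 arrays. The labels give no strain, age or sex, and epidermis without a transgene was not analysed here, so every value is a difference between the 2 lines, noggin minus BMP4 on the log2 scale.

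Kallikreins are secreted as inactive precursors by keratinocytes of the granular layer and are activated in the stratum corneum, where they cut the adhesion proteins that hold corneocytes together and so allow scales to shed. KLK5 can activate itself and then other kallikreins, and the many Kazal domains of LEKTI, the product of Spink5, hold the cascade in check. Loss of LEKTI causes Netherton syndrome, with overactive kallikreins and a leaking skin barrier. Matriptase and prostasin act earlier in the barrier, on the surface of keratinocytes, and cystatin M/E (Cst6) restrains legumain and cathepsin L during cornification.

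No member passed the test in the comparison of the lines, and neither did any other gene. The group means of most members lay close together. The differences of largest size were those of Spink6 and Spink12, which were higher in BMP4 replicate 1 than in every other array. Among members whose groups did not overlap, they were those of Spink7, Klk6 and Spink14, which were higher in noggin, and of Klk12, which was higher in BMP4. In the limma fit 0 of the 41 members, and 0.0% of all 19938 genes, had an adjusted p below 0.05, and the smallest adjusted p of a member was 0.70, that of Klk6. At an unadjusted p below 0.05 there were 4 members, Klk6, Spink7, Spink10 and Spink14, a level that 4.28% of all genes reached. A mean higher in noggin was found for 25 of 41 members, against 47.8% of all genes. The median difference of the members was 0.03, against -0.01 over all genes, and became -0.01 without noggin replicate 1. In 9 members the noggin pair of arrays lay wholly above the BMP4 pair, an order that 15.7% of all genes had, and in 4 members it lay wholly below, as for 17.9% of all genes. An exact permutation test of 2 arrays against 2 cannot give a two-sided p below 0.333, so the values that follow describe these 4 pools.

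**Figure D1:**
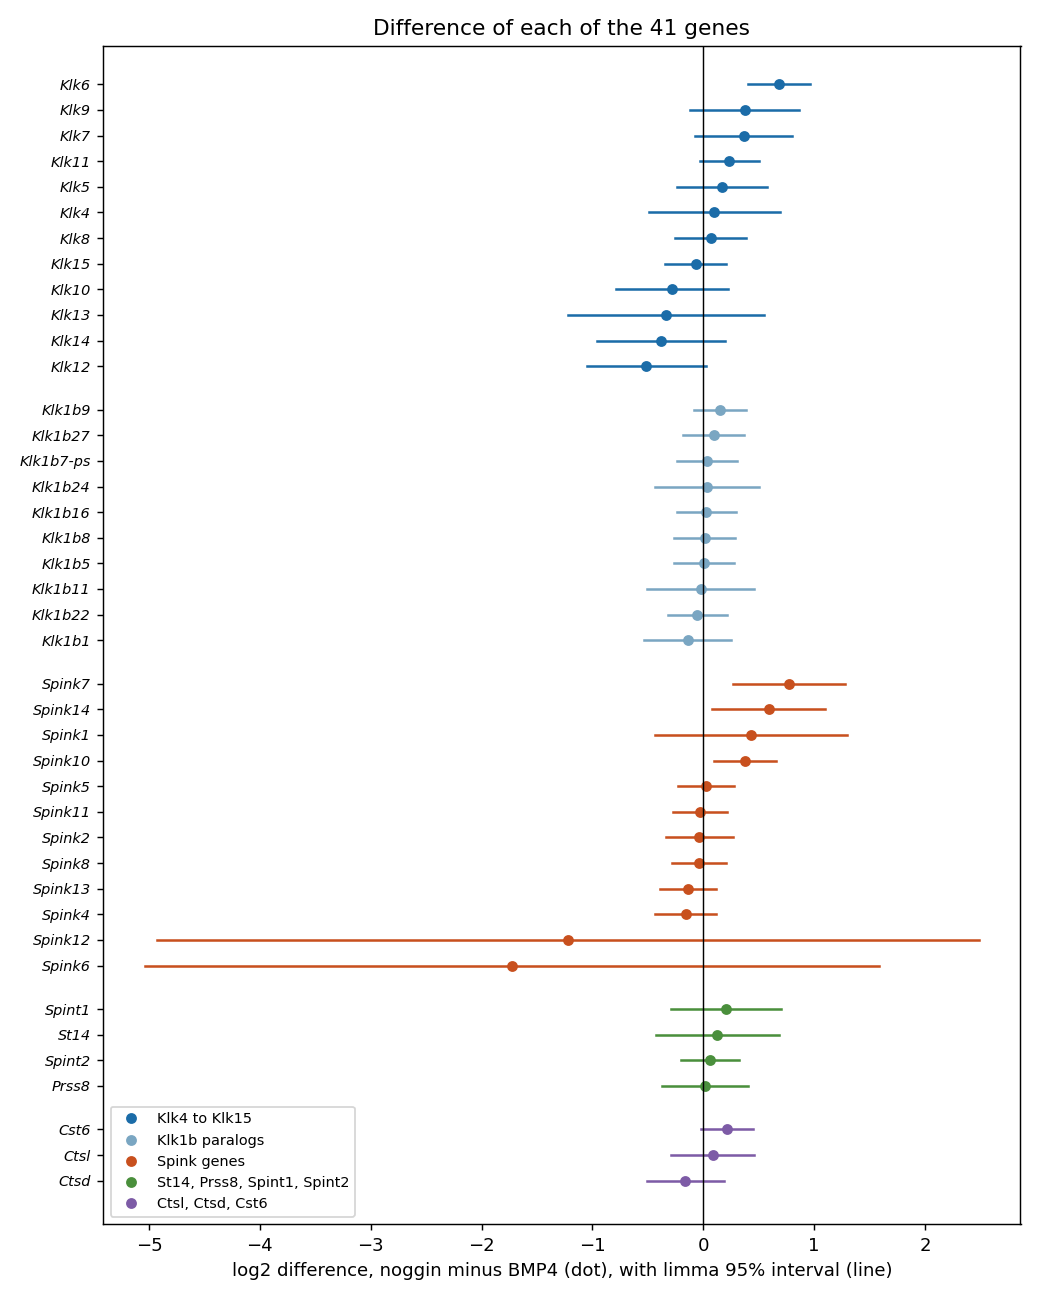
Log2 difference (noggin minus BMP4, horizontal axis) of each of the 41 genes, one gene per row, coloured by group, with the limma 95% interval as a line. Klk6, Spink7, Spink14 and Spink10 have intervals that lie above 0, and the intervals of Spink6 and Spink12 are far wider than all others shown.

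The arrays had medians between 6.04 and 6.06, and the lower quartile of the probe set means was 4.73. Below that level detection above background is unknown, and 12 of the 41 members lay there. The captured tissue carried keratinocyte markers, with Krt14 between 12.2 and 12.4 and Krt10 between 13.3 and 13.4 on the 4 arrays. The probe set of Nog read 5.92 and 5.99 in noggin and 6.13 and 6.04 in BMP4, and that of Bmp4 read 7.77 and 7.86 in noggin and 8.22 and 8.03 in BMP4. It is not known whether these probe sets bind the transgene RNA, so the values are no check of the labels. BMP4 replicate 1 differed most from the rest, in that 43 genes exceeded their next array there by over 1 log2 unit and 44 lay below all others by as much. Spink6 and Spink12 were the 2 members among them. In bulk tissue, fewer cells of a type and less RNA per cell cannot be told apart.

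The kallikreins from Klk14 to Klk15 are neighbours in a single run on mouse chromosome 7, followed by the Klk1b paralogs. The 120 bases before the transcription start, from RefSeq (GRCm38.p6, plus strand, 5′ to 3′), are shown first for the 4 genes of this run with the smallest p, because they lie close together and did not all differ in the same direction. They stand at chr7:43824424-43824543 for the first start of Klk6, chr7:43825330-43825449 for its second start, chr7:43811174-43811293 for Klk7, chr7:43774497-43774616 for the first start of Klk11 and chr7:43768980-43769099 for Klk12. Klk15, at chr7:43931555-43931674, is added because it holds the one TATAAA found among the genes of this run.
Klk6 start 1: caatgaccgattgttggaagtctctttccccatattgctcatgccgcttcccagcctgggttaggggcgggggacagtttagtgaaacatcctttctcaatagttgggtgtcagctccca
Klk6 start 2: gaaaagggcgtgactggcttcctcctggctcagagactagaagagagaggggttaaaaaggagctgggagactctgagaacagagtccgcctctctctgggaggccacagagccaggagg
Klk7: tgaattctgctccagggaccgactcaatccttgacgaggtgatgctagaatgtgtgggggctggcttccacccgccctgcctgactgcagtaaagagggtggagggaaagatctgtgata
Klk11 start 1: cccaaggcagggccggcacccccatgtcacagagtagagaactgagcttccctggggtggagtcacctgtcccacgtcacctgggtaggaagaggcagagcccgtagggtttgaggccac
Klk12: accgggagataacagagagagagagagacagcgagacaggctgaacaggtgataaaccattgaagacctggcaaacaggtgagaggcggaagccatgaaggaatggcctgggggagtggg
Klk15: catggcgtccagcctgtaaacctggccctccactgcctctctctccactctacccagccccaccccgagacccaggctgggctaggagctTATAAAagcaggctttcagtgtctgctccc

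Capitals mark matches to the searched motifs, which were the TATA box TATAAA, its variant TTTAAA, the AP-1 site TGANTCA, the AP-2 site GCCNNNGGC and the SMAD site GGCGCC, on both strands of the 250 bases before each start. Of the 12 genes from Klk4 to Klk15, 1 held TATAAA (Klk15), 2 held GCCNNNGGC (Klk8 and Klk9) and 0 held any of the other 3 motifs. Among all 32851 promoters of the same length the shares were 12.4% for the TATA box, 12.1% for its variant, 6.75% for TGANTCA, 13.7% for GCCNNNGGC and 9.59% for GGCGCC. For pairs of these 12 genes, an alignment with free ends gave a median of 1.4% and at most 10.4% of the 250 bases as identical. Unlike stretches slide apart in such an alignment, so few bases are paired (44 for Klk12 and Klk4, the pair at 10.4%). These shares are therefore no measure of identity side by side.

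Klk6, a trypsin-like protease also known from the brain, had the smallest p of the members. Its log2 values were 6.62 and 6.76 in noggin and 5.97 and 6.05 in BMP4. The noggin arrays were the high ones, the groups did not overlap, and the 2 values within each line were close together. The difference was 0.68 with a 95% interval from 0.41 to 0.96, or 1.61-fold, with an adjusted p of 0.70 (limma). Leaving out 1 array gave differences from 0.61 to 0.75.

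Klk7, the chymotrypsin-like protease that cuts corneodesmosin, was 11.64 and 11.60 in noggin and 11.06 and 11.45 in BMP4. The groups did not overlap, but BMP4 replicate 1 was the low array and the other BMP4 array lay close under the noggin arrays. The difference was 0.37 with an interval from -0.07 to 0.80 (limma, adjusted p = 0.91). Leaving out BMP4 replicate 1 lowered it to 0.17, and leaving out BMP4 replicate 2 raised it to 0.56. Klk5, the trypsin-like protease that starts the cascade, was 10.20 and 9.98 in noggin and 9.79 and 10.05 in BMP4. The groups overlapped, with a difference of 0.17 and an interval from -0.24 to 0.58, and leaving out 1 array gave 0.04 to 0.30. Klk14, the third of the best-known shedding proteases, was 6.36 and 6.20 in noggin and 6.92 and 6.40 in BMP4. It stood the other way, with the BMP4 arrays higher, no overlap and a difference of -0.38 (interval -0.95 to 0.19), of which -0.12 was left without BMP4 replicate 1. The 3 proteases therefore showed no shared direction in these pools.

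Klk8, or neuropsin, a trypsin-like protease of suprabasal epidermis, was 10.74 and 10.52 in noggin and 10.59 and 10.53 in BMP4. Its groups overlapped, and the interval of its difference reached from -0.25 to 0.39. Klk11, another trypsin-like member, was 10.16 and 10.17 in noggin and 9.86 and 9.998 in BMP4. The noggin arrays agreed closely and both lay higher, by 0.24 (interval -0.03 to 0.50; limma, adjusted p = 0.89). Klk9 was 10.24 and 9.88 in noggin and 9.55 and 9.83 in BMP4. Its groups were separated by less than 0.1, between noggin replicate 2 and BMP4 replicate 2. The difference was 0.37, and it became 0.19 without noggin replicate 1 and 0.55 without noggin replicate 2.

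On the BMP4 side, Klk12 was 8.62 and 8.23 in noggin and 9.10 and 8.78 in BMP4. Both BMP4 arrays lay higher, and the difference was -0.51 with an interval from -1.05 to 0.02, or 1.43-fold, with an adjusted p of 0.87 (limma). It ranged from -0.71 to -0.32 on leaving out 1 array. Klk10 was 8.02 and 7.69 in noggin and 8.30 and 7.97 in BMP4, so that in each line replicate 1 was the higher array and the groups overlapped. Klk13, a kallikrein of keratinising epithelia, was 10.16 and 9.32 in noggin and 10.21 and 9.94 in BMP4. Noggin replicate 2 alone was low here, and without it the difference of -0.33 became 0.09.

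Klk4, best known as a protease of the enamel matrix, was 6.56 and 5.99 in noggin and 6.13 and 6.22 in BMP4. Its noggin arrays lay on either side of the BMP4 arrays, and the difference was 0.10 (interval -0.49 to 0.70), or -0.18 without noggin replicate 1. Klk15 lay between 5.11 and 5.28 on all arrays. In the order of the locus, Klk14, Klk13 and Klk12 had lower means in noggin, Klk11 a higher and Klk10 a lower mean, the 6 genes from Klk9 to Klk4 higher means and Klk15 a lower mean. In all, 7 of the 12 had a higher mean in noggin and the median difference was 0.09. Leaving out noggin replicate 1 gave a median of -0.09, and leaving out the other noggin array gave 0.21.

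**Figure D2:**
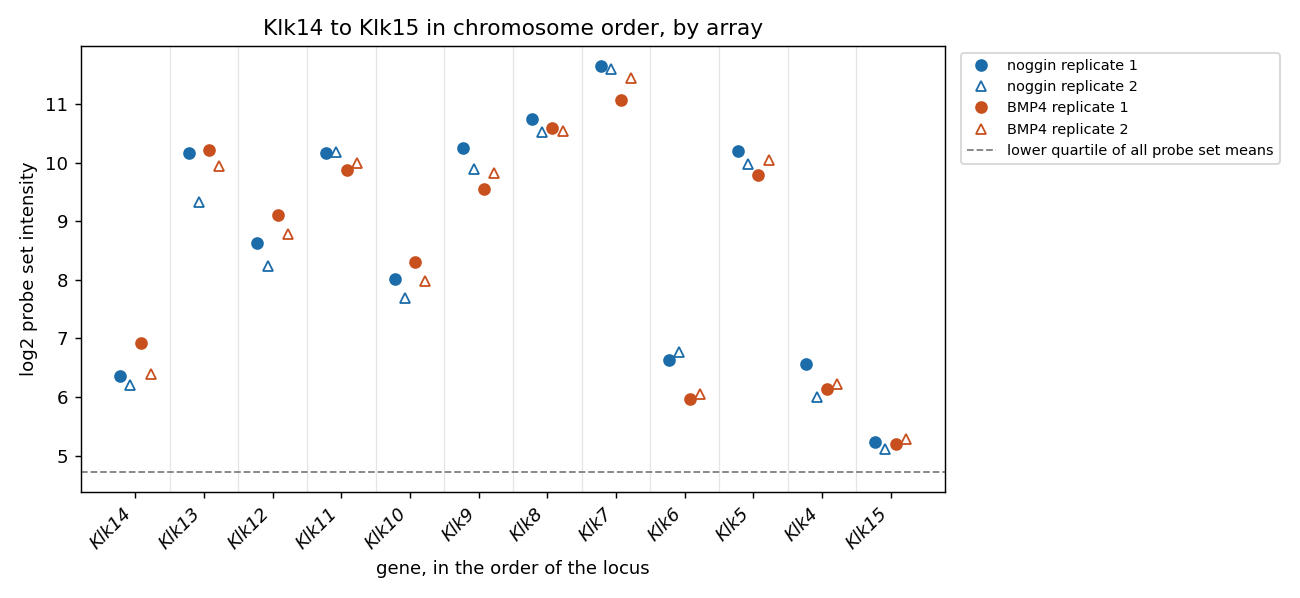
Log2 probe set intensity (vertical axis) of the 12 genes from Klk14 to Klk15, in the order of the locus, on each of the 4 arrays. Klk6 shows both noggin arrays, at 6.62 and 6.76, above both BMP4 arrays, at 5.97 and 6.05, whereas Klk12 shows the opposite order, and heights of different genes are not comparable.

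The Klk1b paralogs, which in mice are mainly glandular kallikreins of the submandibular gland, were dim. Of the 10, 8 had means below the lower quartile, all differences lay between -0.14 and 0.15, and the median difference was 0.02. Klk1b9 was 5.28 and 5.31 in noggin and 5.12 and 5.16 in BMP4. It was the one paralog whose groups did not overlap, with a difference of 0.15 (interval -0.08 to 0.39). Of 12 salivary and pancreatic gland markers 7 were measured, with mean log2 values of 5.53 and 5.56 in noggin and 5.60 and 5.60 in BMP4. Their median difference was small too, at -0.05. A lower mean in noggin was found for 5 of the 7, where 47.8% of all genes had a higher one. In 2 the BMP4 arrays were higher without overlap, as in 17.9% of all genes.

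The Klk1b genes are close copies, and probes may bind more than 1 of them, so the 10 values may not be separate measurements. Their upstream sequences were also compared. These lie before the transcription start, so they do not show whether probes bind more than 1 paralog. No probe or transcript sequence was compared. Between 9 paralogs with an entry, a median of 79.2% of the 250 bases before the start was identical (69.2% to 89.2% over 36 pairs). Between a Klk1b gene and a gene from Klk4 to Klk15 the free-ended alignment paired few bases. The median of 1.6% there is not on the same scale. All 9 paralogs held TTTAAA, which 12.1% of all promoters hold and none of the 12 other kallikreins did. TTTAAA was added to the motifs after these sequences had been seen. The stretches lie on the plus strand at chr7:43975941-43976060 for Klk1b9, chr7:44112553-44112672 for Klk1b22, chr7:44188116-44188235 for Klk1b24 and chr7:44052170-44052289 for Klk1b27, and the capitals mark TTTAAA.
Klk1b9: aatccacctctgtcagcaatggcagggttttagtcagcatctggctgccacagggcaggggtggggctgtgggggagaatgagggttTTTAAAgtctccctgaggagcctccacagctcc
Klk1b22: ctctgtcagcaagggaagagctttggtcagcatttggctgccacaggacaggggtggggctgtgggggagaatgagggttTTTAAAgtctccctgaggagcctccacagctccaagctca
Klk1b24: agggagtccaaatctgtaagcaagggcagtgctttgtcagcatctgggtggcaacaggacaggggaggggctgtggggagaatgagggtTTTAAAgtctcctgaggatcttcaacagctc
Klk1b27: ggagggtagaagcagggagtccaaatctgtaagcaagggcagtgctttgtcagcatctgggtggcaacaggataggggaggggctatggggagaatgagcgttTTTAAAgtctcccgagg

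Among the inhibitors, Spink5, which encodes LEKTI, had nearly the same mean in both lines. It was 12.42 and 12.51 in noggin and 12.47 and 12.40 in BMP4. The arrays of the 2 lines interleaved, and the difference of 0.03 had an interval from -0.23 to 0.28.

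Spink7, an inhibitor of stratified epithelia, had the largest difference on the noggin side. It was 10.21 and 10.14 in noggin and 9.63 and 9.17 in BMP4. The noggin arrays were high and the BMP4 arrays low without overlap, by 0.77 (interval 0.27 to 1.28), or 1.71-fold, with an adjusted p of 0.79 (limma). It became 1.004 on leaving out BMP4 replicate 1 and 0.54 on leaving out the other BMP4 array, so here the second BMP4 array was the lower one. Spink14, a further Kazal-type gene, was 8.46 and 8.77 in noggin and 8.20 and 7.85 in BMP4. Its groups did not overlap either, and the difference was 0.59 (interval 0.08 to 1.10; limma, adjusted p = 0.87), from 0.41 to 0.77 on leaving out 1 array.

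Spink10 was 4.35 and 4.43 in noggin and 3.95 and 4.09 in BMP4. The 2 groups were apart by 0.37, but all values were below the lower quartile, where detection is unknown. Spink1, the pancreatic secretory trypsin inhibitor, was 7.30 and 7.92 in noggin and 6.87 and 7.49 in BMP4. In both lines replicate 2 was the higher array, by 0.62 in noggin and 0.61 in BMP4, and the groups overlapped (difference 0.43, interval -0.44 to 1.30). Leaving out noggin replicate 2 or BMP4 replicate 1 gave a difference of 0.12, and leaving out either of the other arrays gave 0.74.

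Spink6, an inhibitor of kallikreins in human skin, differed between the 2 BMP4 pools rather than between the lines. It was 4.76 and 4.68 in noggin, 8.15 in BMP4 replicate 1 and 4.72 in BMP4 replicate 2. A single array was high, and the other 3 lay within 0.1 of each other near the lower quartile. The difference of -1.72 (interval -5.04 to 1.59) was -0.0081 without that array. The gap of 3.40 to the next array ranked 15 among 19938 genes for this array. Of the 14 genes with a larger gap, 7 had symbols of keratin-associated proteins (Krtap) of the hair shaft. The others were Defb4 and genes with provisional symbols, whose type was not examined. The share of Krtap symbols over all genes was not counted. Of the hair follicle and shaft markers, 13 of 13 had a lower mean in noggin, where 47.8% of all genes had a higher one. In 7 of them the BMP4 arrays were higher without overlap, as in 17.9% of all genes, with mean log2 values of 5.92 and 5.76 in noggin, 6.88 in BMP4 replicate 1 and 6.30 in BMP4 replicate 2. The median difference of the 13 markers was -0.16 and stayed at -0.13 without BMP4 replicate 1, unlike the difference of Spink6. Among single markers, the hair keratin Krt86 had the shape of Spink6, at 4.65, 4.49, 6.64 and 4.70 in the same order of arrays. Krt84 read 5.47 and 5.71 in noggin and 11.60 and 9.09 in BMP4. Of the other markers of that list, Krt35 lay between 5.64 and 5.76 on all arrays. The part of hair or follicle RNA in the Spink6 value was not tested.

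Spink12 was 8.36 and 6.60 in noggin and 10.41 and 6.99 in BMP4. It was the most variable member across the arrays, and in each line replicate 1 was the high array, by 1.76 in noggin and by 3.41 in BMP4. Of 19938 genes it was the only one at least 1.5 log2 units higher in replicate 1 than in replicate 2 of both lines, a limit chosen after its values had been seen. The difference of -1.22 had an interval from -4.93 to 2.49 and became 0.49 without BMP4 replicate 1.

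Spink4, which is known from goblet cells of the gut, lay between 6.31 and 6.55, with both BMP4 arrays higher, and the difference of -0.16 was -0.08 without noggin replicate 2. Spink2, an inhibitor known from the testis, lay between 5.14 and 5.34, and its groups overlapped. Spink13 lay between 4.37 and 4.57, Spink8 between 3.98 and 4.08 and Spink11 between 3.58 and 3.66, all below the lower quartile. Over the 12 Spink genes, 5 had a higher mean in noggin and the median difference was -0.03, which was 0.03 without noggin replicate 1 and also 0.03 without BMP4 replicate 1.

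**Figure D3:**
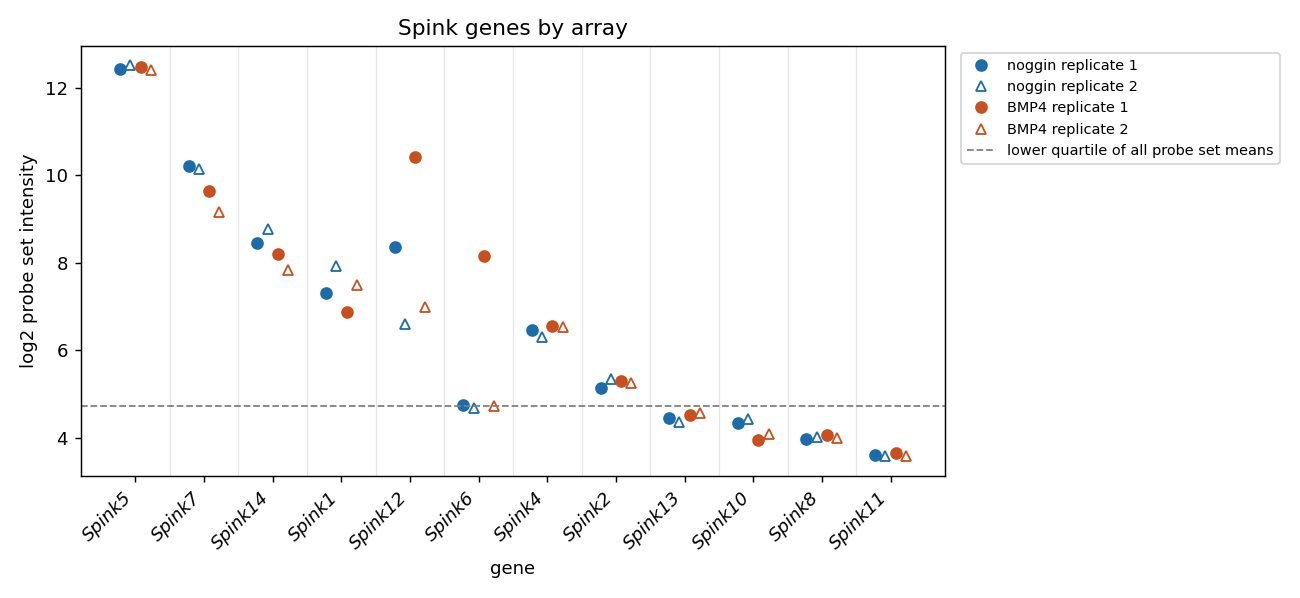
Log2 probe set intensity (vertical axis) of the 12 Spink genes on each of the 4 arrays, with the lower quartile of all probe set means as a dashed line. Spink7 shows the noggin arrays on top without overlap, Spink6 shows BMP4 replicate 1 alone at 8.15, and Spink12 shows both replicate 1 arrays above both replicate 2 arrays, while heights of different genes are not comparable.

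The membrane-bound proteases and their inhibitors differed between the lines by less than the BMP4 arrays of St14, Spint1 and Spint2, and both pairs of arrays of Prss8, differed among themselves. St14, or matriptase, was 8.86 and 8.53 in noggin and 8.36 and 8.77 in BMP4. Prss8, or prostasin, was 7.96 and 7.65 in noggin and 7.75 and 7.84 in BMP4. Spint1, the inhibitor HAI-1, was 9.25 and 9.10 in noggin and 8.75 and 9.18 in BMP4. All 3 had overlapping groups, and in St14 and Spint1 BMP4 replicate 1 was the lowest array. Spint2, the inhibitor HAI-2, lay between 7.94 and 8.08. The 4 differences were between 0.01 and 0.21, and the median of 0.10 was -0.02 without BMP4 replicate 1.

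Cst6, or cystatin M/E, was 9.85 and 9.88 in noggin and 9.64 and 9.66 in BMP4. The arrays of each line agreed to within 0.04, and those of noggin were higher without overlap, by 0.22 (interval -0.02 to 0.45), or 1.16-fold, with an adjusted p of 0.89 (limma). Ctsl, the lysosomal cysteine protease cathepsin L, was 10.43 and 10.27 in noggin and 10.14 and 10.39 in BMP4. Ctsd, the aspartic protease cathepsin D, was 11.09 and 10.87 in noggin and 11.06 and 11.22 in BMP4. The groups overlapped for both cathepsins, with differences of 0.09 and -0.16, and that of Ctsd was -0.05 without noggin replicate 2.

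Corneodesmosome and desmosome genes, other proteases and their inhibitors, and protease targets were then examined, on lists chosen with earlier results of these data known. No gene of any of these lists passed the test. Over all genes, 47.8% had a higher mean in noggin, 15.7% had the noggin arrays higher without overlap and 17.9% the BMP4 arrays, and the counts that follow stand beside these shares. Of 12 listed corneodesmosome and desmosome genes 10 were measured, without Dsg1a and Dsc1. The list holds desmosome genes in general, among them Jup, Dsp and Pkp1, so its counts do not stand for kallikrein substrates. Of these 10 genes, 9 had a lower mean in noggin, in 5 the BMP4 arrays were higher without overlap, and the median difference was -0.09. The groups overlapped for Dsg1b (difference -0.11) and Dsg1c (-0.07). Leaving out 1 array gave medians of the 10 genes from -0.17 to -0.11. Cdsn, the corneodesmosin cut by KLK5 and KLK7, was 11.44 and 11.34 in noggin and 11.70 and 11.74 in BMP4. Its groups did not overlap and the difference was -0.33 (limma, adjusted p = 0.85), opposite in sign to that of Klk7. Dsg3, a desmosomal cadherin of the lower layers, was 1.29-fold higher in BMP4 (limma, adjusted p = 0.91), and its difference of -0.36 became -0.20 when noggin replicate 1 was left out and -0.23 when BMP4 replicate 1 was.

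The next list of 20 genes covers filaggrin processing and other proteases, not all of them of the stratum corneum. It also holds the filaggrin relatives Flg2 and Hrnr, and Flg itself was not measured. Of its 19 measured genes, 16 had means that were higher in noggin. In 10 the noggin arrays were higher without overlap, as in 15.7% of all genes. The median difference of the 19 genes, 0.28, was 0.06 without BMP4 replicate 1. Lgmn, the legumain restrained by Cst6, was 7.74 and 8.15 in noggin and 7.33 and 7.14 in BMP4. Both noggin arrays were higher, 1.63-fold in the mean (limma, adjusted p = 0.81), and Pcsk6, a proprotein convertase, was 1.21-fold higher (limma, adjusted p = 0.87). Legumain and several cathepsins are also abundant in macrophages, and the means of 13 of 13 macrophage and Langerhans cell markers were higher in noggin. The mean log2 value of those markers was 7.51 and 7.65 in noggin and 6.63 and 7.41 in BMP4, and their part in the Lgmn value was not tested.

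Of 17 other serine proteases, mainly but not all membrane-bound, 12 had a lower mean in noggin. In 7 the BMP4 arrays were higher without overlap and in 0 the noggin arrays were, against 17.9% and 15.7% of all genes. The median difference was -0.13, and it ranged from -0.24 to -0.11 on leaving out 1 array. Those with the smallest p were Prss53, 1.33-fold higher in BMP4, and Tmprss2, 1.32-fold higher in BMP4 (limma, adjusted p of 0.87 and 0.92). The Tmprss2 difference of -0.40 became -0.16 when BMP4 replicate 1 was left out and -0.64 when the other BMP4 array was, and that of Prss53, -0.41, was -0.27 without noggin replicate 2. The list of 25 other inhibitors of serine and cysteine proteases also holds some of metalloproteases. Of these 25 genes, 14 had a higher and 11 a lower mean in noggin. Timp3, an inhibitor of metalloproteases, was 1.27-fold and Wfdc5, a whey acidic protein inhibitor, 1.26-fold higher in noggin (limma, adjusted p of 0.87 for each). Among 22 targets of epidermal serine proteases, 16 stood higher in noggin by their means. The median difference was 0.06, and it ranged from 0.05 to 0.10 on leaving out 1 array. Met, the receptor of hepatocyte growth factor, was 7.34 and 7.33 in noggin and 6.71 and 6.85 in BMP4, and Il1f6, which encodes interleukin-36 alpha, was 1.56-fold higher in noggin (limma, adjusted p of 0.73 and 0.84). The Il1f6 difference of 0.64 was 0.43 without BMP4 replicate 1.

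**Figure D4:**
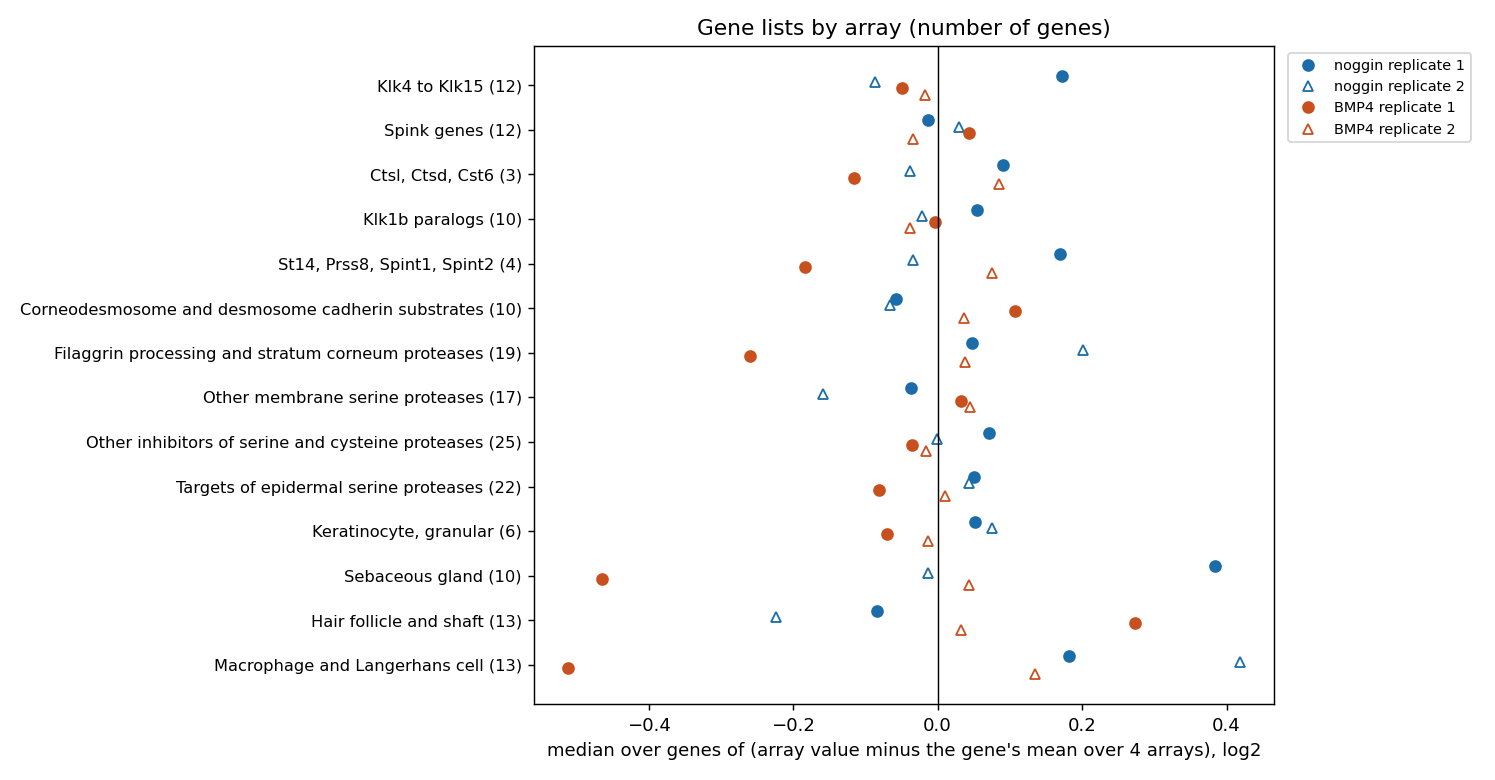
Median over the genes of each list of the array value minus the gene's mean over the 4 arrays (horizontal axis, log2), with the number of genes in brackets. The 12 genes from Klk4 to Klk15 read 0.17 in noggin replicate 1 and -0.09 in noggin replicate 2, with the BMP4 arrays between them, while the 10 corneodesmosome and desmosome genes have both BMP4 arrays on the right.

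Markers of the granular layer, where kallikreins are made, had mean log2 values of 11.56 and 11.78 in noggin and 11.27 and 11.52 in BMP4, with 5 of 6 higher in noggin and a median difference of 0.14. For sebaceous gland markers the mean of 10 of 10 genes was higher in noggin, at 8.002 and 7.60 against 7.04 and 7.57. Eccrine gland and duct markers read 6.91 and 6.64 in noggin and 6.67 and 6.92 in BMP4. Skeletal muscle markers, foreign to epidermis, read 8.57 and 7.66 in noggin and 7.07 and 7.89 in BMP4, and dermal fibroblast markers 8.17 and 8.20 against 7.94 and 8.39. BMP4 replicate 1 was the lowest array for the granular, sebaceous, macrophage, muscle and fibroblast lists, as it was for 15 members, among them Klk7, Klk9, Klk5, Klk11, Klk6, Spink1, St14 and Spint1. It was the highest array for 12 members, among them Klk10, Klk12, Klk13, Klk14, Spink4, Spink6 and Spink12. The shares of all genes with this array lowest or highest were not counted, so these counts mark no trait of the members. Noggin replicate 1 was the highest array for the sebaceous and skeletal muscle lists, among others. It was also highest for the medians of Klk4 to Klk15, the Klk1b paralogs, the matriptase system and the cathepsin system, but not of the Spink genes. The part of cell composition in the members' values was not tested.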

How the data were processed

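Affymetrix Expression Console and RMA are named in the submitters' processing notes, with no version or settings. The authors deposited log2 probe set intensities, 35556 per array, which RMA corrects for background, quantile-normalizes and summarizes, so that dim changes are compressed. Arrays give no depth, and the number of arrays limits the precision. The replicates are pools of different animals. Of the probe sets, 21789 had 1 gene symbol in the platform annotation, 1621 several and the rest none.

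The difference was fitted on all probe sets in R 4.3.3 with limma 3.58.1 (two-sided moderated test, the line as sole term, 2 residual and 2.08 prior degrees of freedom), with Benjamini-Hochberg adjustment over all probe sets and a threshold of 0.05. The code was tested on simulated data. Same-numbered arrays deviated from their group means with a correlation of -0.12 over all probe sets, and the main fit used no pairing. With 2 arrays per line this value cannot show whether same-numbered pools were handled together. Members, lists, motifs and rules were chosen with earlier results of these data known. Values in every array were printed for the 8 members of smallest p, the 8 of highest mean and 13 chosen by role. Spink6, Spink12, Klk9, Klk10, Klk4, Klk1b9, Spink1 and the other members were added after their values were seen. From each list the 2 genes of smallest p were named. All 41 members matched the GRCm38.p6 gene table, and 26 had a promoter used here. Python 3.11.15 and matplotlib 3.10.9 made the plots.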

Additional observations from a re-analysis of the deposited data

How the results depend on the processing

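No member passed an adjusted p of 0.05 in limma under any alternative run, nor at a threshold of 0.1 or 0.25. The smallest adjusted p of a member over the alternatives was 0.167, that of Spink6 without BMP4 replicate 2. With the replicate number as a block (replicate block), 5 members lay at an unadjusted p below 0.05. At an unadjusted p below 0.01 there was 1 member and below 0.1 there were 8. Under cyclic loess, median centring and quantile normalization 122 of 123 member differences kept their direction, the exception being Spink5 at -0.00083 after quantile normalization. In the 5 other alternatives with all arrays the differences are those of the main setting by construction. Leaving out 1 array gave 2 to 7 members at an unadjusted p below 0.05, 21 to 31 members whose groups did not overlap (more because 1 array is easier to separate than 2) and 19 to 25 members whose mean was higher in noggin. Median differences then ranged from -0.015 to 0.096 for all members, from -0.036 to 0.11 for kallikreins and from -0.059 to 0.032 for Spink genes. The sign turned on leaving out some array for 21 of the 41 members. Their differences ranged for Ctsl from -0.043 to 0.21, Klk13 from -0.75 to 0.087, Klk1b1 from -0.30 to 0.024, Klk1b11 from -0.19 to 0.15, Klk1b16 from -0.043 to 0.096, Klk1b22 from -0.12 to 0.013, Klk1b24 from -0.18 to 0.25, Klk1b5 from -0.066 to 0.081, Klk1b7-ps from -0.019 to 0.090, Klk1b8 from -0.054 to 0.080, Klk4 from -0.18 to 0.38. They also ranged for Klk8 from -0.042 to 0.18, Prss8 from -0.14 to 0.17, Spink11 from -0.059 to 0.0025, Spink12 from -2.93 to 0.49, Spink2 from -0.13 to 0.068, Spink5 from -0.015 to 0.068, Spink8 from -0.076 to 0.0020, Spint1 from -0.0087 to 0.42, Spint2 from -0.0060 to 0.13, St14 from -0.076 to 0.33. The cause was not tested. For arrays, signal over background limits the 12 members below the lower quartile.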
